A study of Mus musculus with 106 samples.

Results

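Interscapular brown adipose tissue (iBAT) of mice housed at 34 °C was compared with iBAT of mice housed at room temperature, 22 °C, across every gene measured by RNA sequencing. The comparison used 6 of the 106 samples of the series, 3 libraries per temperature, chosen by tissue and housing temperature alone. All mice were wild-type C57BL/6J males, 12 weeks old by their labels, with no transgene or deletion in either group, and those at 34 °C had been kept warm for 4 weeks, while their controls stayed at 22 °C. They lived 2 to a cage without nesting material. The sources disagree on what a library is: the methods describe pools of 2 mice, while a sampling sheet lists mostly single animals with 1 pool among the warm libraries, so p-values here measure the spread between 3 libraries per group, whatever each held.

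Brown fat burns fuel to make heat. Noradrenaline from sympathetic nerves acts on beta-adrenergic receptors, raises cAMP, frees fatty acids from lipid droplets and switches on a thermogenic gene programme, and UCP1 then lets protons leak back across the inner mitochondrial membrane so that respiration yields heat in place of ATP. Near thermoneutrality the tissue has little heating to do and takes on large lipid droplets, a state often called whitening.

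Depth was 29545458 to 40297761 counts per library. Values are CPM, a gene's share of the library's counts scaled up to a common total, adjusted by TMM normalization, which assumes that most genes keep their level, and log2FC is the log2 fold change of 34 °C over 22 °C, with its standard error. Genes were tested by the quasi-likelihood method of edgeR, and a gene was called where its p-value, adjusted by Benjamini and Hochberg's method over all 12331 genes tested, was under 0.05. The adipocyte label held: 8 general adipocyte markers summed to 17949 to 20493 CPM at 22 °C and 16967 to 19215 CPM at 34 °C. All 10 brown adipocyte markers passed the filter on low counts, which is no test of identity. They summed to 11455 to 15303.5 CPM at 22 °C and 6664 to 8067 CPM at 34 °C, with 2 called lower and 2 higher. Most of the fall in this sum was that of Ucp1 alone, whose mean went from 6680 to 1396 CPM. The mean sum went from 13194 to 7448 CPM, and the median log2FC of the 10 was -0.20.

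Skeletal muscle transcripts were abundant in 4 of the 6 libraries, in a pattern that crossed the groups. Acta1, the skeletal muscle actin, measured 0.368, 1098 and 1.67 CPM in 22 °C libraries 1 to 3 and 845, 226 and 234 CPM in 34 °C libraries 1 to 3. Summed over 26 muscle markers the levels were 108, 8785 and 104 CPM at 22 °C and 7126, 2003 and 2200.3 CPM at 34 °C. The second 22 °C library was thus the richest in muscle RNA and the other two 22 °C libraries nearly free of it, with every 34 °C library in between. Against quadriceps libraries at 22 °C (n = 6) the median marker stood at 2.39% of its quadriceps level in 22 °C library 2 and at 2.38%, 0.661% and 0.723% in the 34 °C libraries. No muscle marker was called (0 of 26 by edgeR and by DESeq2). Without 22 °C library 2, however, all 26 were called higher at 34 °C. That library also correlated less with its own group (Pearson r across genes of 0.932 and 0.940 on log2 CPM) than the other two 22 °C libraries did with each other (0.987). In whole tissue, a change in the number of cells of a type and a change in RNA per cell cannot be told apart.

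**Figure D1:**
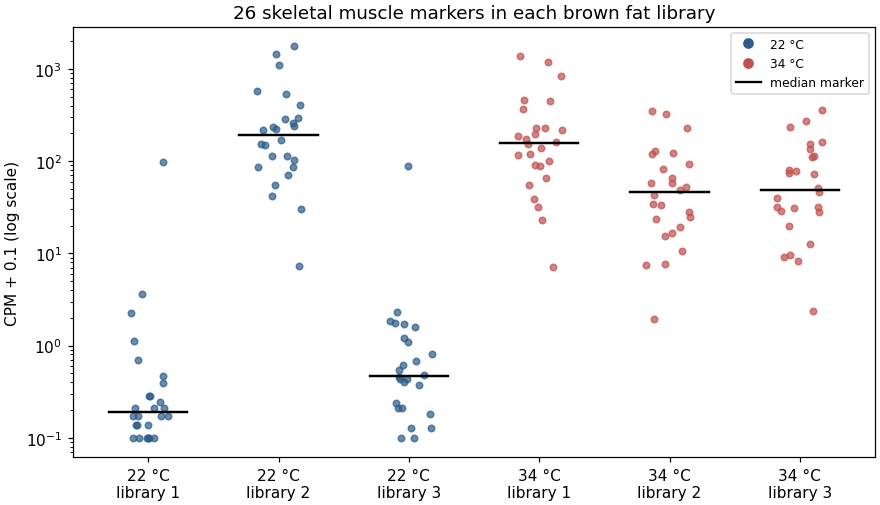
Each point is 1 of 26 skeletal muscle markers in 1 brown fat library, as CPM plus 0.1 on a log axis, blue at 22 °C and red at 34 °C, and the black line is the median marker. In 22 °C libraries 1 and 3 all markers but Myl1 sit below 4 CPM, and 22 °C library 2 lies close to 34 °C library 1.

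Of the 12331 genes, 1661 (13.5%) were called higher and 1900 (15.4%) lower at 34 °C compared to 22 °C, and 99 of the called genes rose and 59 fell by more than 2 on the log2 scale. The counts were 780 and 1090 without 34 °C library 1, 1067 and 1193 without 22 °C library 1, and 908 and 1114 without 22 °C library 3. The split rests on the scaling and also on the rule for a call. With the same scaling, an unadjusted edgeR p of at most 0.05 and changes above 1.5-fold gave 1505 higher and 887 lower. The 10 genes with the highest mean CPM at 22 °C, Scd1 and Fasn first, took 13.9%, 18.8% and 15.8% of all counts at 22 °C and 5.23%, 10.2% and 6.58% at 34 °C. Scaled by library size alone the median log2FC over all genes moved from 0.02 to 0.30, with 4234 genes higher and 684 lower. Small falls are therefore relative to the typical gene. Leaving out genes whose expected muscle share passed 10% of their level in any library removed 96 of the higher and 30 of the lower calls.

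Part of the thermogenic programme fell, Ucp1 included, and more of its genes were left uncalled than were called. Ucp1, the uncoupling protein itself (chromosome 8, 83290352 to 83298452, GRCm38), measured 8249, 5494 and 6296 CPM at 22 °C and 1266, 1692 and 1231 CPM at 34 °C. The highest 34 °C library thus lay well below the lowest 22 °C library, with Ucp1 still readily counted in each (log2FC -2.26 ± 0.20, edgeR adjusted p = 0.00107). Dio2, the deiodinase that makes active thyroid hormone inside the brown adipocyte, measured 222, 169 and 68.3 CPM at 22 °C and 8.48, 32.9 and 5.66 CPM at 34 °C. Its log2FC was -3.28 ± 0.74 (edgeR adjusted p = 0.0169), a call that was lost without 34 °C library 1. Ppargc1a, the coactivator that drives mitochondrial biogenesis, measured 54.7, 115 and 68.3 CPM at 22 °C and 27.9, 26.8 and 32.5 CPM at 34 °C, a log2FC of -1.45 ± 0.26 (edgeR adjusted p = 0.00821).

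Of 37 tested genes of the thermogenic programme, 13 fell and 4 rose, with a median log2FC of -0.31 beside 0.02 over all genes, and the other 20 were not called. With library size alone 11 fell and 4 rose. Otop1, a proton channel abundant in brown fat, fell from 297 ± 28.1 to 68.3 ± 5.19 CPM (SD, n = 3 each), a log2FC of -2.12 ± 0.11 (edgeR adjusted p = 0.000654). Gyk, glycerol kinase, which lets the cell reuse the glycerol of lipolysis, fell from 207 ± 68.1 to 24.9 ± 0.967 CPM (log2FC -3.06 ± 0.23, edgeR adjusted p = 0.000871). Against these, Cidea, a lipid droplet protein used as a brown fat marker, measured 3562, 3355 and 3504 CPM at 22 °C and 2773, 3680.5 and 3372 CPM at 34 °C. The Cidea groups overlapped, with a log2FC of -0.08 ± 0.13. Prdm16, the transcription factor of brown fat fate, also overlapped at 39.9 ± 7.43 and 33.5 ± 6.79 CPM (log2FC -0.25 ± 0.18). Both are short of the test and their intervals include small changes of either sign. Zic1 and Ebf2, transcription factors of the brown lineage, likewise were not called, at log2FC of -0.38 and -0.25. The rising members were Lhx8, a lineage transcription factor (2.71 ± 1.08 to 6.38 ± 1.8 CPM), Fabp3, a fatty acid carrier (585 ± 42 to 863 ± 112 CPM), Pank1, which starts coenzyme A synthesis, and Ppara, the nuclear receptor for fatty acids (log2FC 0.36 ± 0.11). The Lhx8 call was lost without any one of 22 °C library 3, 34 °C library 1 and 34 °C library 2, that of Ppara without any single library, and 1 or 2 members rose in each fit that left out a library. Fgf21, a hormone that cold-activated brown fat can secrete, was too low for the test, at 0.0736, 0.0297 and 0 CPM at 22 °C and 0.0236, 1.06 and 0.322 CPM at 34 °C.

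**Figure D2:**
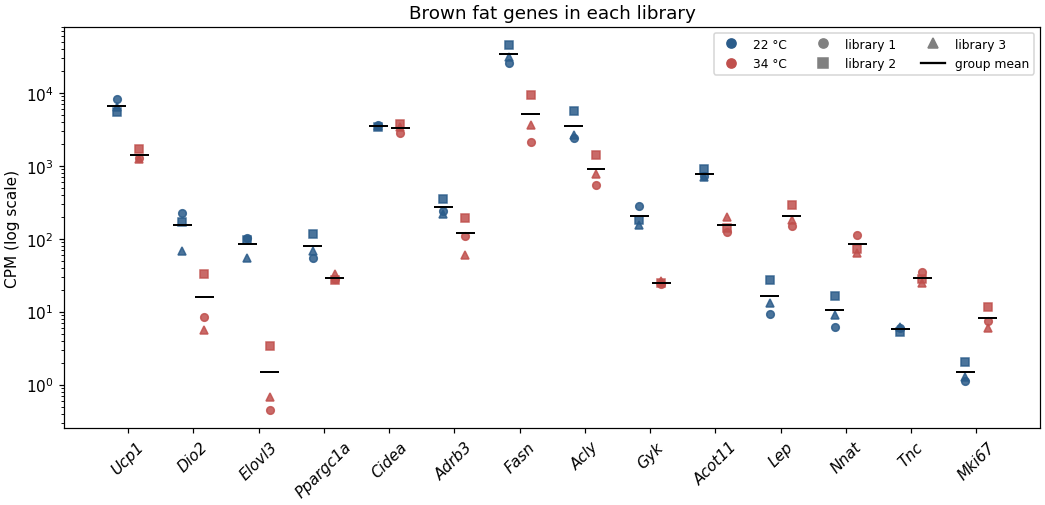
Each point is 1 library, as CPM on a log axis, blue at 22 °C and red at 34 °C, the symbol giving the library number and the black line the group mean of 3. Ucp1, Dio2, Elovl3, Fasn and Gyk separate downwards at 34 °C, Lep, Nnat, Tnc and Mki67 separate upwards, and the Cidea points overlap.

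Genes of the adrenergic signal upstream changed in part. Adrb3, the receptor through which noradrenaline acts on rodent adipocytes, measured 243, 351 and 219 CPM at 22 °C and 109.8, 193 and 60.5 CPM at 34 °C. Its groups did not overlap, and its log2FC of -1.16 ± 0.39 missed the threshold (edgeR adjusted p = 0.0619). Adrb1, another beta receptor of the tissue, overlapped, at 23.7 ± 10.3 and 26 ± 11.6 CPM. Over 42 tested genes of adrenergic and cAMP signalling 4 rose (9.52%) and 10 fell (23.8%), beside 13.5% and 15.4% over all genes tested. With library size alone 11 rose and 8 fell. Among those that fell were 2 enzymes that make cAMP, Adcy10 (5.65 ± 1.9 to 0.325 ± 0.268 CPM) and Adcy3 (355 ± 45.5 to 138 ± 27.8 CPM), and 2 that break it down, Pde7b (33.5 ± 7.05 to 9.77 ± 2.09 CPM) and Pde3a (7.22 ± 0.566 to 2.93 ± 0.848 CPM). Of 15 thyroid hormone genes, 5 fell, Dio2 and the lipogenic target Thrsp (log2FC -1.14 ± 0.13) among them, and Ncoa1, a nuclear receptor coactivator, rose (log2FC 0.34 ± 0.07). The 5 became 2 without 34 °C library 1 and 3 without 22 °C library 3 or 34 °C library 3, and with library size alone 4 rose and 3 fell.

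Fatty acid synthesis had the highest share of lower calls among the lists examined. Of 38 tested members 26 fell and 2 rose, with a median log2FC of -1.10, and with library size alone 24 fell. Fasn, fatty acid synthase, measured 25870, 45200 and 31283 CPM at 22 °C and 2130, 9475 and 3570 CPM at 34 °C. The lowest 22 °C library still held more Fasn than the highest 34 °C library (log2FC -2.75 ± 0.54, edgeR adjusted p = 0.0114). Acly, which makes the acetyl-CoA that Fasn uses, measured 2422, 5570 and 2651 CPM at 22 °C and 546, 1426 and 760 CPM at 34 °C. Its log2FC of -1.96 ± 0.44 (edgeR adjusted p = 0.0173) was no longer called without 34 °C library 1 or without 34 °C library 3. Elovl3, the elongase of saturated very long chains, ran from 54 to 102 CPM at 22 °C and from 0.448 to 3.4 CPM at 34 °C, the largest called fall among genes reaching 5 CPM in either group. Scd1, the desaturase of stearate, had the highest mean CPM at 22 °C and measured 50954, 94924 and 78088 CPM at 22 °C and 6374, 43873 and 16019 CPM at 34 °C. Those groups did not overlap, but the 34 °C libraries spread widely and the log2FC of -1.76 ± 0.63 was not called (edgeR adjusted p = 0.0735). Among the transcription factors of the list, Nr1h3, the liver X receptor alpha, had a called log2FC of -0.70. Mlxipl, the carbohydrate-sensing factor ChREBP, and Srebf1 were not called. Mlxipl measured 379.6 ± 61.3 and 377 ± 29.8 CPM, and Srebf1, the sterol regulatory factor, measured 464 ± 97.6 and 430.2 ± 73.4 CPM. The risers were Fads1, a desaturase of polyunsaturated chains (log2FC 0.85 ± 0.24), and Mid1ip1, a partner of acetyl-CoA carboxylase (log2FC 0.60 ± 0.14). The Fads1 call was lost without any one of 22 °C libraries 1 and 3 and 34 °C libraries 1 and 2.

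Cholesterol synthesis fell in part. Of 26 tested members 10 fell and 0 rose, and without 34 °C library 1 only 4 fell, with 6 without 22 °C library 1 or 34 °C library 3 and 7 with library size alone. Nsdhl, a late sterol enzyme, measured 67.4, 85.1 and 59.3 CPM at 22 °C and 19, 34 and 20 CPM at 34 °C (log2FC -1.54 ± 0.24, edgeR adjusted p = 0.00569).

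The promoters of these 2 lists were searched for an E-box, CACGTG, bound by basic helix-loop-helix factors, and for a sterol regulatory element, TCACNCCAC, on both strands of the 300-base RefSeq windows around the start (build GRCm38.p6); N is any base, and the end of TCACNCCAC can overlap the start of CACGTG. The E-box letters occurred in 9 of the 52 members with a window, called or not, and in 4 of the 33 called members. The sterol element occurred in 2 of the 52 and in 1 of the 33. Neither share was higher among the called members than among all members. Counted by window, since some genes have several, the E-box occurred in 10 of the 68 windows of all members tested (14.7%) and in 7.15% of all 32851 windows, and the sterol element in 2 of the 68 (2.94%) and in 1.24% of all windows. The 250 bases before the start are shown for the 3 called members with a match and the smallest p, as examples of promoters of genes that fell, and capitals mark the motif. Elovl5, an elongase of polyunsaturated chains, had a log2FC of -1.18, Hmgcs1, an early cholesterol enzyme, -1.02, and Slc25a1, the mitochondrial citrate exporter, -1.88.
Elovl5 (chr9:77917115-77917364, plus strand): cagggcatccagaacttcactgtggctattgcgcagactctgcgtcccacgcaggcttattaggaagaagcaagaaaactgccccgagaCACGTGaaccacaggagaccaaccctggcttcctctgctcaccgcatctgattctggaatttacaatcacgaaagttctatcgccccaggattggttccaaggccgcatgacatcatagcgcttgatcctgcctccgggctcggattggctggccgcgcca
Hmgcs1 (chr13:119690101-119690350, plus strand): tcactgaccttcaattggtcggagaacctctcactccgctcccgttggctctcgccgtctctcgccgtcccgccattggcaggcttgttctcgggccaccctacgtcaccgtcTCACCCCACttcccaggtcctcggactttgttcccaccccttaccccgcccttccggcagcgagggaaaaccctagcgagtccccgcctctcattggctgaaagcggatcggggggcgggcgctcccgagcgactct
Slc25a1 (chr16:17928220-17928469, minus strand): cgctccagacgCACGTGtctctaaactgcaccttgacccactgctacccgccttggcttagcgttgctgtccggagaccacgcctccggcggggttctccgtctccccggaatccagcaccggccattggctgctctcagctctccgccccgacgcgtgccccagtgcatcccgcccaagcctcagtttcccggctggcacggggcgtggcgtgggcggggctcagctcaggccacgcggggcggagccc
Counted from the start, the match in Elovl5 began at -161, that in Hmgcs1 at -137 and that in Slc25a1 at -239.

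Storage and release of triglyceride moved unevenly. Of 24 tested genes of triglyceride synthesis 15 fell and 0 rose, and with library size alone 12 fell and 4 rose. Agpat2, which adds the second acyl chain, measured 2742, 2578 and 1900 CPM at 22 °C and 286, 788 and 288 CPM at 34 °C (log2FC -2.41 ± 0.42, edgeR adjusted p = 0.0073). Acsl5, which activates fatty acids, fell from 657 ± 116 to 130.2 ± 33.6 CPM, while Dgat2, the last step, overlapped at 3283 ± 313 and 2748 ± 670 CPM. Among 23 genes of lipolysis and the lipid droplet 10 fell and 3 rose, or 8 and 6 with library size alone. The lipases differed: Pnpla2, which starts triglyceride breakdown, and Lipe, which continues it, were not called at log2FC of 0.04 ± 0.12 and 0.13 ± 0.09, whereas Mgll, which finishes it, fell from 1159 ± 141 to 525 ± 34.9 CPM and Abhd5, the coactivator of Pnpla2, from 197 ± 23.9 to 75 ± 4.09 CPM. Of the droplet coats, Plin2 fell (log2FC -1.38 ± 0.27) and Plin4 rose (0.63 ± 0.14). Of 22 lipid uptake genes 5 rose and 5 fell, 22.7% each beside 13.5% and 15.4% over all genes tested. With library size alone 7 rose and 3 fell. Gpihbp1, the capillary anchor of lipoprotein lipase, rose from 112 ± 11.2 to 211 ± 8.4 CPM and Angptl4, its inhibitor, from 463 ± 83.2 to 1035 ± 286 CPM, while the transporters Slc27a1, Slc27a2 and Slc27a4 fell, with log2FC of -0.68, -0.91 and -0.62.

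Fatty acid oxidation fell in part. Of 34 peroxisomal genes 21 fell and 0 rose (median log2FC -0.55), and with library size alone 16 fell. Ehhadh, the bifunctional enzyme, measured 243, 253 and 359 CPM at 22 °C and 45.8, 45.6 and 26.8 CPM at 34 °C (log2FC -2.85 ± 0.25, edgeR adjusted p = 0.00107). The thioesterases Acot1, Acot4 and Acot2 fell, with log2FC of -4.84, -2.74 and -1.12. They are similar neighbours in the genome, so reads may be split between them. In mitochondrial fatty acid oxidation 14 of 28 fell and 1 rose, and 9 fell without 22 °C library 3 and 6 with library size alone. Slc25a20 and Cpt2, which carry acylcarnitine in and convert it, fell from 828 ± 92.7 to 391 ± 44.2 CPM and from 730.4 ± 42.4 to 347 ± 23.6 CPM. Of 6 ketone body genes 3 fell and 1 rose, Oxct1, which uses ketones, being the one that rose (342 ± 46 to 534 ± 113 CPM). The Oxct1 call was lost without any library but 34 °C library 2, and the 3 falls became 1 without 22 °C library 1 or 3 or 34 °C library 1 and 0 with library size alone.

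Glycolysis and pyruvate entry into the mitochondrion fell in part. Of 38 genes of glycolysis and glucose uptake 17 fell, 2 rose and 19 were not called, and with library size alone 15 fell and 7 rose. Mpc1 and Mpc2, the pyruvate carrier, fell from 669.8 ± 71.6 to 272 ± 75 CPM and from 580 ± 66.7 to 243 ± 30.7 CPM, and Pdhb, of pyruvate dehydrogenase, from 1523 ± 117 to 725 ± 159 CPM. Slc2a4, the insulin-responsive glucose transporter, was not called, at 593 ± 57.6 and 654 ± 41.9 CPM. Aldoa, also abundant in muscle, had an expected muscle share of up to 15.7% at 34 °C and went from 6054 ± 1799 to 3328 ± 732 CPM. Its call was lost with library size alone and without any one of 22 °C libraries 2 and 3 and 34 °C libraries 1 and 3. In the TCA cycle 10 of 24 fell and 2 rose, but 2 fell without 22 °C library 1 or 3 and 2 with library size alone. Idh2, the mitochondrial NADP-linked isocitrate dehydrogenase, rose from 498 ± 69.5 to 926 ± 93.1 CPM. Of 27 genes of branched-chain amino acid breakdown 12 fell and 1 rose, and 7 fell without any one of 22 °C libraries 1 and 3 and 34 °C libraries 1 and 2, with 3 under library size alone.

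The share of respiratory chain genes called lower varied by complex, beside 15.4% over all genes tested. Of 36 complex I genes 6 fell (16.7%), of 4 complex II genes 2 (50%) and of 9 complex III genes 3 (33.3%). Of 17 genes of complex IV and cytochrome c 1 fell (5.88%), and none of the 17 complex V genes fell. Cox6b2, a testis-type subunit of complex IV, and Atpif1, the inhibitor of ATP synthase, were called higher. Without 22 °C library 1 or 3 or 34 °C library 1 no complex I gene fell by edgeR, while DESeq2 called 11 lower. No complex II gene fell without 22 °C library 1 or 3, and none of complex II or III fell with library size alone. In complex III 1 gene fell without any one of 22 °C libraries 1 and 3 and 34 °C libraries 1 and 3. The list medians ran from -0.33 for complex III to -0.10 for complex V. The signs of the complex I, IV and V medians turned positive under library size alone (0.07, 0.09 and 0.16), so no direction is given for them. Sdha, of complex II, fell from 3906, 3789.8 and 3659 CPM to 2375, 2762 and 2921 CPM, while Atp5b, the beta subunit of ATP synthase, stood at 8685 ± 569 and 7522 ± 426 CPM without a call. Of 76 mitochondrial ribosomal protein genes 34 fell and 0 rose (median log2FC -0.30). That count was 15 to 17 without 22 °C library 1 or 3 or 34 °C library 1, and under library size alone 7 fell and 7 rose, with a median of -0.03. Mrps27, of the small subunit, measured 97.4, 88 and 86.8 CPM at 22 °C and 47.3, 52.1 and 51.5 CPM at 34 °C. Of 37 proteasome genes 18 fell and 1 rose, 8 falling without 22 °C library 3 or 34 °C library 1, 9 without 34 °C library 3, and 4 with library size alone. Psmd6, of the regulatory lid, fell from 81.4 ± 3.83 to 46.3 ± 6.02 CPM. Psmb10, an immunoproteasome subunit, was the member that rose (32.4 ± 6.05 to 45.2 ± 0.951 CPM), a call lost without any library but 22 °C library 2.

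**Figure D3:**
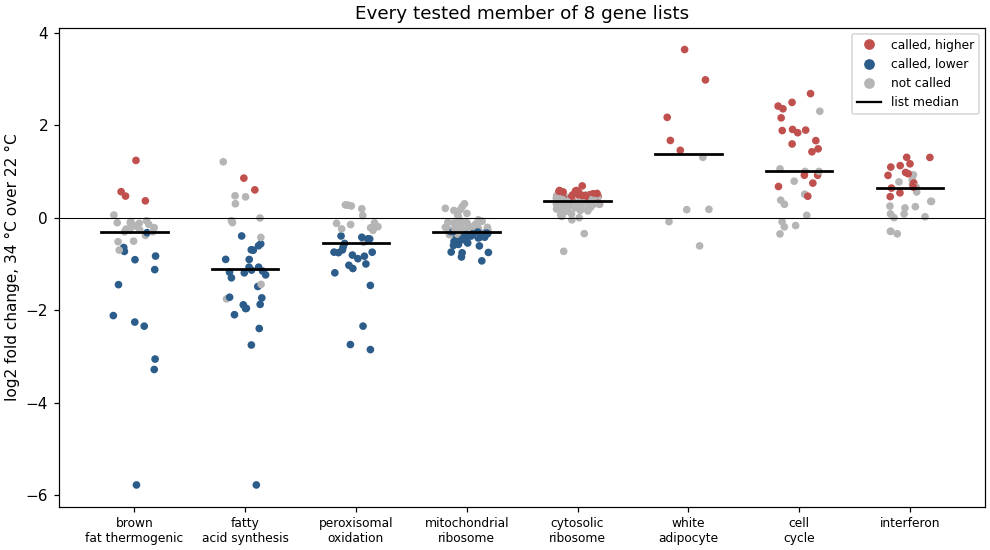
Each point is a tested gene, placed by its log2 fold change of 34 °C over 22 °C in 1 of 8 gene lists, red where called higher, blue where called lower and grey where not called, with the list median as a black line. The fatty acid synthesis median lies at -1.10, and all called cell cycle genes lie above 0.

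Some genes typical of white adipocytes rose. Lep, the leptin hormone, measured 9.35, 27.5 and 13 CPM at 22 °C and 152, 286 and 183 CPM at 34 °C (log2FC 3.63 ± 0.44, edgeR adjusted p = 0.00259). The lowest 34 °C library held far more Lep than the highest 22 °C library. Of 10 tested genes typical of white fat 5 rose and 0 fell, with a median log2FC of 1.38: Lep, the imprinted genes Nnat (10.6 ± 5.29 to 83.5 ± 26.3 CPM) and Mest (1.19 ± 0.391 to 5.39 ± 1.17 CPM), the natriuretic peptide clearance receptor Npr3 (53 ± 9.94 to 168 ± 34.5 CPM) and Agt, angiotensinogen, with an expected muscle share of up to 18.6%. Hoxc10 and Hoxc9, which mark subcutaneous white fat, were at or near 0 in every library, and Retn, the hormone resistin, was not called (log2FC 0.17). Of 18 adipokine genes 6 rose and 2 fell, or 10 and 2 with library size alone. Cfd, adipsin, rose from 1193 ± 199 to 2500 ± 563 CPM and Rbp4, the retinol carrier, fell from 144 ± 25.9 to 39.4 ± 10.8 CPM. Adipoq, adiponectin, overlapped at 1427 ± 148 and 1668 ± 144 CPM. Of 13 other genes for proteins that brown fat can secrete 3 rose and 1 fell, Vegfa, the vessel growth factor, rising from 524 ± 30.1 to 756 ± 91.2 CPM; 1 rose without 22 °C library 3, and 6 with library size alone.

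The largest called rise among genes reaching 5 CPM was that of Fras1, an extracellular matrix protein of basement membranes, from 0.478, 0.0891 and 0.465 CPM to 14.1, 9.2 and 14.5 CPM (log2FC 5.19 ± 0.50, edgeR adjusted p = 0.00132). Plekhg6 followed Prnd, a prion-like protein, and Mmp12, the macrophage elastase, in size. Plekhg6 went from 0.92, 4.34 and 2.82 CPM to 34.3, 45.5 and 38.7 CPM, and Mmp12 from 0, 0.416 and 0.739 CPM to 4.83, 21.7 and 2.02 CPM. Mmp12 varied widely among the 34 °C libraries, and its call was lost without any one of 22 °C libraries 1 and 3 and 34 °C libraries 1 and 2. The other genes among the 12 largest rises were Lep and Nnat, the small GTPase Rab17, the spindle protein Spag5, the serine protease Prss12, Strip2, the collagen Col28a1 and Tusc3, of the oligosaccharyltransferase. Expected muscle RNA made up at most 1.52% of any of these 12 at 34 °C, while at 22 °C, where counts were few, the estimate passed the measured level of Fras1 and reached 19.9% for Spag5. Among the 12 largest falls were, beside those above, Aspg, an asparaginase (359 ± 25.4 to 32.4 ± 15.3 CPM), Ccrn4l, the rhythmic deadenylase nocturnin (118 ± 41.6 to 11.1 ± 3.16 CPM), St3gal5, the synthase of ganglioside GM3 (74.1 ± 9.64 to 5.93 ± 1.06 CPM), the acetylcholine receptor subunit Chrna2 (6.89 ± 1.23 to 0.453 ± 0.215 CPM), Slc25a34, a mitochondrial carrier, and Adprhl1. Adprhl1 is a muscle gene whose 34 °C level of 0.568 ± 0.0679 CPM had an expected muscle share of up to 81.5%, against at most 5.03% of its 22 °C level of 8.52 ± 2.69 CPM.

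Genes of dividing cells, of blood vessels and of macrophages were higher in part. Of 31 cell cycle genes 18 rose and 0 fell, with 6 without 22 °C library 1 or 3, 7 without 34 °C library 2 and 9 without 34 °C library 1. Mki67, the proliferation marker, measured 1.1, 2.02 and 1.29 CPM at 22 °C and 7.38, 11.6 and 5.95 CPM at 34 °C (log2FC 2.49 ± 0.35, edgeR adjusted p = 0.00365). Of 12 endothelial markers 7 rose, 4 without 22 °C library 3 or 34 °C library 1, and their summed level ran from 1006 to 1298 CPM at 22 °C and from 1428 to 1941 CPM at 34 °C. Pecam1, the endothelial adhesion molecule, rose from 126 ± 14.7 to 210 ± 25.5 CPM, while Kdr and Flt1, the VEGF receptors, were not called. Of 14 macrophage markers 3 rose (21.4%, beside 13.5% over all genes tested). The 14 summed to 186 to 325 CPM at 22 °C and 378 to 619 CPM at 34 °C. Under library size alone 11 rose, and 1 or fewer without 22 °C library 1 or 34 °C library 1 or 2. Trem2, the receptor of lipid-handling macrophages, measured 0.0368, 0.267 and 0.465 CPM at 22 °C and 1.7, 7.16 and 1.61 CPM at 34 °C.

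The other cell types showed less. Of 8 fibroblast and preadipocyte markers 2 rose, Cd34 by the larger amount (51.6 ± 6.43 to 112 ± 12.8 CPM), and of 7 smooth muscle and pericyte markers 1, Pdgfrb. Of 6 nerve and Schwann cell markers 1 rose, Prx. The T cell markers summed to at most 8.47 CPM and the B cell markers to at most 5.54 CPM in any library, with 1 of each tested, and the B cell one, Cd79b, was called. The Pdgfrb, Prx and Cd79b calls were each lost without 22 °C library 3, and 1 fibroblast marker rose without any one of 22 °C libraries 1 and 3 and 34 °C libraries 1 and 3. Red cell markers varied from 30.1 to 756 CPM at 22 °C and from 235 to 680 CPM at 34 °C, with 0 of 2 called. The part of these cells in the results above was not tested.

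Of 32 interferon-induced genes 14 rose and 0 fell, with 6 to 9 without any one of 22 °C libraries 1 and 3 and the 34 °C libraries, and 22 without 22 °C library 2. DESeq2 called 18 higher and 1 lower. The summed level of the 34 listed genes was lower at 34 °C, at 1929 to 2206 CPM against 2230 to 2310 CPM at 22 °C. With library size alone the mean sum was higher at 34 °C (2299 CPM, against 2062 CPM at 22 °C). Isg15, the ubiquitin-like modifier, measured 3.68, 4.96 and 4.08 CPM at 22 °C and 8.01, 10.2 and 9.52 CPM at 34 °C (log2FC 1.12 ± 0.19, edgeR adjusted p = 0.00624). None of 7 MHC class II genes was called by edgeR or DESeq2, though 3 rose without 22 °C library 2. Of 49 collagen and matrix genes 9 rose (18.4%, beside 13.5% over all genes tested) and 1 fell (2.04%, beside 15.4%). The rising count was 18 without 22 °C library 2, 5 without 22 °C library 1 or 34 °C library 1, and 29 with library size alone. Tnc, tenascin C, measured 6, 5.2 and 6.19 CPM at 22 °C and 34.5, 27.8 and 24.4 CPM at 34 °C, whereas Col1a1 overlapped at 233 ± 60.1 and 315 ± 69.4 CPM. Of 74 cytosolic ribosomal protein genes 28 rose and 0 fell, and the count ranged from 4 (without 34 °C library 3) to 20 (without 22 °C library 3) among the leave-one-out fits and reached 68 under library size alone. Rps20 rose from 215 ± 34.1 to 323 ± 20.3 CPM; many of these genes have processed pseudogenes, so their counts are uncertain.

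Genes of creatine and calcium cycling, which can use ATP to make heat without UCP1, include several that muscle also expresses. Of 16 tested members 5 rose and 2 fell, while 9 rose without 22 °C library 2 and 3 without 22 °C library 1 or 34 °C library 1. Ckmt2, the mitochondrial creatine kinase, was 0, 44.5 and 0 CPM at 22 °C and 27.5, 7.35 and 10.7 CPM at 34 °C, in the same order of libraries as the muscle markers. Ckb, the brain-type creatine kinase, measured 56.1, 40.7 and 34.1 CPM at 22 °C and 185, 94.6 and 166 CPM at 34 °C (log2FC 1.77 ± 0.28, edgeR adjusted p = 0.00565), with at most 0.502% expected from muscle in any library. Casq2, a calcium store protein, measured 1.4, 3 and 1.45 CPM at 22 °C and 12, 11.1 and 10.6 CPM at 34 °C, with an expected muscle share of up to 29.2% at 22 °C and 5.59% at 34 °C. Among the 22 °C libraries it was highest in library 2, the one richest in muscle RNA, and still below every 34 °C library. Slc6a8, the creatine transporter, rose from 44.1 ± 4.94 to 98.9 ± 8.18 CPM, and Atp2a2, the calcium pump SERCA2, fell from 342 ± 9.92 to 208 ± 28.4 CPM.

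**Figure D4:**
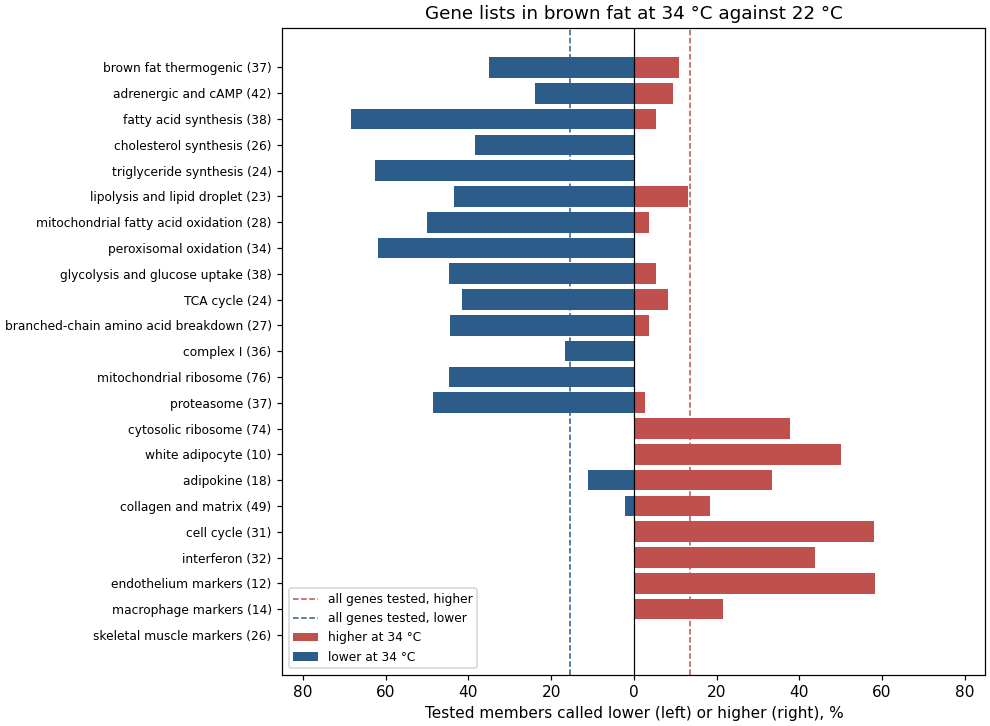
Bars give the percentage of tested members (number in brackets) called lower, to the left in blue, or higher, to the right in red, at 34 °C against 22 °C, and the dashed lines give the same over all 12331 genes (15.4% lower, 13.5% higher). Fatty acid synthesis and triglyceride synthesis reach furthest to the left, and cell cycle genes and endothelial markers furthest to the right.

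The 2 lists that the study took from gene ontology and published markers gave 31 lower and 15 higher of 132 thermogenesis genes tested, and 87 lower and 17 higher of 215 fatty acid metabolism genes. The shares were 23.5% lower and 11.4% higher for thermogenesis and 40.5% and 7.91% for fatty acid metabolism. Over all genes tested they were 15.4% and 13.5%. For the thermogenesis list the balance turned under library size alone, with 18 lower and 37 higher, and for fatty acid metabolism it gave 60 lower and 42 higher. The higher counts dropped to 8 for thermogenesis without 22 °C library 1 and to 7 for fatty acid metabolism without 22 °C library 3.

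The 34 °C effect in brown fat was set against that in liver of the same experiment (3 libraries per temperature) as an interaction. The test asks whether these tissues responded differently, and cannot tell whether a response belonged to brown fat alone. Of 12599 genes 1147 (9.10%) differed, with 691 without brown fat 34 °C library 1 and 745 without liver 22 °C library 2. Of 8 genes chosen for this test, Elovl3 differed by -4.51 ± 0.86 (edgeR adjusted p = 0.00903), with a log2FC of -1.25 ± 0.56 in liver. Fasn differed by -3.43 ± 0.80 (edgeR adjusted p = 0.0218), with a log2FC of 0.69 ± 0.55 in liver, and the call was lost without liver 22 °C library 1 or 3. Ppargc1a differed by -1.67 ± 0.44 (edgeR adjusted p = 0.0353), a call lost in 6 of the 12 fits that left out a library. Adrb3 was not called (-1.12 ± 0.46, edgeR adjusted p = 0.149). Ucp1, Dio2, Cidea and Lep were at or near 0 in liver, so their difference could not be measured. Other fat depots were not compared here. The study reports genes that rose, and genes that fell, in the warm in both brown and subcutaneous fat.

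The warm effect was also set against the effect of 10 °C in iBAT of a separate experiment (3 libraries per temperature, each against its own 22 °C group), whose wild-type mice, 11 weeks old and C57BL/6 by their labels and C57BL/6J by the study's methods, came from another supplier and whose libraries came from another kit and site. Of 12368 genes 3771 (30.5%) had effects that differed. In this joint fit Ucp1 had a log2FC of -2.26 ± 0.26 at 34 °C and 0.83 ± 0.25 at 10 °C, a difference of -3.09 ± 0.36 (edgeR adjusted p = 0.000135). Adrb3 differed by -1.76 ± 0.46 (edgeR adjusted p = 0.0139), at -1.16 ± 0.33 in the warm and 0.60 ± 0.33 in the cold. Lep rose in the warm, was not called in the cold (log2FC 0.20 ± 0.57), and the difference was 3.43 ± 0.81 (edgeR adjusted p = 0.00857). Elovl3 and Fasn also differed, by -9.26 ± 0.80 and -4.04 ± 0.68. Dio2 and Ppargc1a were not called, with log2FC of -0.99 ± 0.60 and -0.94 ± 0.30 at 10 °C, the same sign as at 34 °C. Their differences were -2.29 ± 0.86 (edgeR adjusted p = 0.0622) and -0.51 ± 0.42 (edgeR adjusted p = 0.377), so neither was shown to respond in opposite directions. Cidea was flat in both, with a difference of -0.02 ± 0.19. The direction of the temperature change and the experiment cannot be told apart in these differences.

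**Figure D5:**
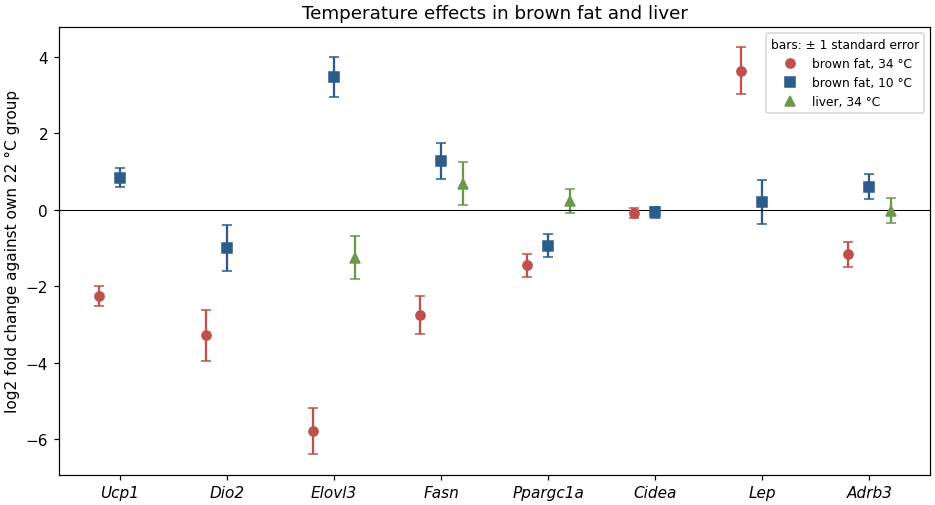
Points give the log2 fold change against the group's own 22 °C libraries with bars of 1 standard error (3 libraries per group), red circles for brown fat at 34 °C, blue squares for brown fat at 10 °C and green triangles for liver at 34 °C, shown for the 4 genes measurable in liver. Elovl3 spans from -5.78 at 34 °C to 3.47 at 10 °C, while the Cidea points lie near 0.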

How the data were processed

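Total RNA was sequenced as 50-base single reads after poly(A) selection. Per the labels the authors used STAR 2.5.3a and HTSeq 0.6p1 on mm10, and deposited raw gene counts, the unit used here. The study's methods name other versions of these tools. Libraries were matched to groups by column name and numbered as the columns are.

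Counts were tested with edgeR 4.0.16 (R 4.3.3): TMM scaling, genes with an average log2 CPM above 0, quasi-likelihood F-tests, Benjamini-Hochberg adjustment and a threshold of 0.05. The interactions were contrasts over 12 libraries; for the 10 °C one, 20192 genes were joined by symbol, 1042 of them through an older symbol. The study itself used edgeR's exact test with unadjusted p. Muscle share was the median of 26 markers relative to quadriceps, times each gene's quadriceps level. Positions are from GENCODE M21. The fits were tested on simulated counts. Results for some genes are not reported here.

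Genes and lists were chosen with earlier results of these data known. Named genes were the 12 largest rises and falls that were called, did not overlap and reached 5 CPM (predicted genes excepted), list anchors, up to 4 called members per list and direction, the 10 most abundant genes and 8 interaction genes. Other list members named (such as Zic1, Ebf2, Retn, Kdr, Flt1, Fgf21, Nr1h3 and the Hoxc genes) were chosen after their values were seen. Alternatives were scaling by library size, the exact test, DESeq2 1.42.0, other filters, the study's cut-offs on the quasi-likelihood p-values and leaving out each library.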

Additional observations from a re-analysis of the deposited data

Results flagged for a closer look

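For 3 genes the 34 °C effect differed between brown fat and liver by a test of the difference itself, a contrast in edgeR with adjustment over all genes. The difference on the log2 scale, brown fat minus liver, was -4.51 for Elovl3, -3.43 for Fasn and -1.67 for Ppargc1a. The Fasn and Ppargc1a calls were lost without certain single libraries, as given above. Within brown fat alone, Elovl3 was lower in 3 of 3 warm libraries than in any at 22 °C, and so were Fasn and Ppargc1a. Groups of 3 libraries were too small for a test of single libraries.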

How the results depend on the processing

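Scaling by library size alone gave 4234 higher and 684 lower genes, and 2668 genes that differed from liver. The study's cut-offs (p up to 0.05 before adjustment, with changes above 1.5-fold) gave 1505 higher and 887 lower genes, so the balance turned. They were applied here to the quasi-likelihood p-values, whereas the study used the exact test. DESeq2 called 1854 genes different from liver. Leaving out each library gave 780 to 1746 higher and 1090 to 1709 lower genes, 691 to 1268 genes that differed from liver and 2806 to 4140 that differed from 10 °C. Without the genes above 10% expected muscle share, an alternative added after seeing the data, 1565 were higher and 1870 lower. Genes near 0 changed sign. With library size alone the log2FC became Prdm16 0.016, Cidea 0.18, Mlxipl 0.27, Srebf1 0.16, Dgat2 0.013, Cd36 0.20, Rbm3 0.14, Hspa5 0.14, Map1lc3b 0.18 and Atp5b 0.064, and the Cidea difference from 10 °C became 0.37. Over the fits that left out a library the log2 values ranged as follows: Cidea -0.19 to 0.016, Adrb1 -0.28 to 0.55, Tshr -0.39 to 0.49, Mlxipl -0.11 to 0.12, Srebf1 -0.27 to 0.057, Pnpla2 -0.033 to 0.13, Cd36 -0.15 to 0.0037, Ckmt2 -0.74 to 12.12, Arntl -0.75 to 0.23, Nr1d1 -0.045 to 0.35, Hspa1a -0.68 to 1.35, Atf4 -0.096 to 0.40, Cidea (brown fat minus liver) -1.25 to 1.74, Cidea (34 °C minus 10 °C effect) -0.14 to 0.092. The upper Ckmt2 value comes from 22 °C libraries at 0 and is no estimate of size. With a replicate block in the 10 °C experiment 3863 genes differed in place of 3771, and no call among the 8 interaction genes changed. Same-number libraries there had correlations of 0.43, -0.13 and 0.0029, and libraries of unlike number ran from -0.36 to 0.35. With 3 libraries per group these values cannot decide whether the numbers pair the libraries. For the 34 °C comparison no paired analysis was possible because the warm columns carry no number tied to a sample. With 3 libraries per group, changes short of the test at this depth are not shown to be absent.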

Other observations

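The stress, clock and turnover lists are read beside all 12331 genes tested, of which 13.5% were called higher and 15.4% lower. Of 28 heat shock genes 7 fell and 0 rose (4 and 3 with library size alone), with 4 falling without 22 °C library 3 or 34 °C library 1; without 22 °C library 2, 4 rose. Hsp90aa1, the inducible cytosolic chaperone, measured 161, 207 and 158 CPM at 22 °C and 78.1, 111 and 73 CPM at 34 °C (edgeR adjusted p = 0.0089), and Hspe1, the mitochondrial co-chaperonin, fell from 285 ± 39.5 to 152 ± 13.4 CPM. Hspa1a, the classic heat-inducible chaperone, stayed under 6 CPM in every library. Of the cold-inducible RNA-binding genes Cirbp was called higher (33.5 ± 6.51 to 46.4 ± 1.91 CPM), a call lost without any library but 22 °C library 3, and Rbm3 was not (82.1 ± 3.33 and 75.1 ± 8.66 CPM). Of 33 genes of the unfolded protein and integrated stress responses 8 rose (24.2%) and 5 fell (15.2%). With library size alone 14 rose and 3 fell. Without 22 °C library 3, 5 rose, and 2 fell without 34 °C library 1 and 3 without 22 °C library 1 or 34 °C library 3. Phgdh, the first enzyme of serine synthesis, measured 9.27, 17.2 and 8.57 CPM at 22 °C and 67, 62.9 and 72.5 CPM at 34 °C, and Ddit3, the factor CHOP, rose from 30.4 ± 3.65 to 73.9 ± 12.7 CPM. Psph, the last enzyme of serine synthesis, fell from 38 ± 3.9 to 17.5 ± 0.953 CPM, so the first and last steps moved apart.

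Of 18 clock genes 1 rose, Cry2 (57.3 ± 3.24 to 105 ± 11.3 CPM), and 1 fell, Clock (51.9 ± 5.61 to 29.5 ± 3.52 CPM), 5.56% each. Both shares lay under those over all genes. Dbp and Nr1d1 overlapped, and under library size alone 8 rose. Of 26 glycogen genes 6 fell and 3 rose, Gys2, a glycogen synthase, falling from 113 ± 17.3 to 43.4 ± 5.51 CPM and Pygl, a phosphorylase, from 1342 ± 277 to 573 ± 39.9 CPM. Stbd1, which tethers glycogen, rose from 12.3 ± 1.61 to 27.8 ± 5.55 CPM, with an expected muscle share of up to 10.5%, and under library size alone 6 glycogen genes rose and 3 fell. Of 41 lysosome and autophagy genes 5 fell (12.2%) and 3 rose (7.32%), shares that also lay under those over all genes. Without 34 °C library 1, 3 fell and 1 rose, and under library size alone 1 fell and 13 rose. Rn45s, the ribosomal RNA precursor, measured 15893, 9943 and 5579 CPM at 22 °C and 2582, 2168 and 1931 CPM at 34 °C; in poly(A)-selected RNA its level depends on the selection, and its part in the other results was not tested. Mitochondrially encoded genes were not analysed here.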
